A study of Mus musculus with 8 samples.

Results

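Carboxylesterases were described in mouse liver after rilpivirine. The family members were 10 genes named by symbol: Ces1b, Ces1c, Ces1d, Ces1e, Ces1f, Ces1g, Ces2a, Ces2c, Ces2e and Ces3a. For 9 of the 10 the platform annotation listed a probe set with that symbol alone, and these 9 were read among 22180 genes measured. Ces2c has no value here. Each of the 9 had 1 probe set, and all 9 passed the filter on dim genes at a mean of 2.72 log2, so all 9 were tested among 16635 genes. Values are on the log2 scale, on which a difference of 1 doubles the signal.

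The 8 samples were liver of wild-type C57BL/6 mice, all labelled with non-alcoholic fatty liver disease. The rilpivirine group had 4 samples, from animals treated daily by mouth with rilpivirine (RPV), a non-nucleoside inhibitor of HIV reverse transcriptase, at a dose given only as matching human use. The control group had 4 samples, labelled as control with no vehicle named. The protocol speaks of a normal and a high fat (60%) diet over 3 months, and the labels do not assign a diet to a sample. Age was not given in the sources used here. Whether the 4 samples of a group are 4 mice is not labelled. The p-values therefore rest on the spread between labelled replicates, which may be technical.

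Carboxylesterases are serine hydrolases that split esters, amides and thioesters in the endoplasmic reticulum of hepatocytes. They activate or clear ester drugs, and several act on the triglyceride that hepatocytes store and package into very low density lipoprotein (VLDL). In the mouse the family has expanded into clusters of neighbouring genes, so that a single human gene is matched by several mouse paralogues. In the RefSeq gene table (GRCm38.p6) all 10 lie on chromosome 8, the Ces1 genes in alphabetical order in one cluster and Ces2a, Ces2c, Ces2e and Ces3a in order in another. Paralogues are similar in sequence, and a probe set of one may also bind RNA of another; probe sequences were not used here.

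The array medians ran from 3.33 to 3.45 log2, and the mean correlation of an array with the others ran from 0.965 to 0.981. The lowest correlation belonged to rilpivirine replicate 2, which also had the highest mean of 75 small nucleolar RNA probe sets, 0.488 log2 above the mean of the 8 arrays. Over the 8 arrays the hepatocyte markers ran from albumin (Alb) at 13.22 to 13.37 log2 and transthyretin (Ttr) at 12.66 to 12.84 down to the urea cycle gene Ass1 at 4.32 to 5.39. Levels of different probe sets are not comparable, so this order does not rank the expression of these genes. The number of arrays limits the precision of every value here.

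No carboxylesterase differed between rilpivirine and control beyond the spread of the replicates. In limma's fit, 0 of the 9 passed a Benjamini-Hochberg adjusted p of 0.05 over all genes, as did 0 of 16635 genes in all (0.0%), and the members' adjusted p ran from 0.890 to 0.991. At an unadjusted p under 0.05 there were 0 of 9 members, against 867 or 5.21% of all genes (333 higher and 534 lower). The groups did not overlap in 0 of 9 members, against 505 genes or 3.04%. The rilpivirine mean was above the control mean in 6 of the 9 and below it in 3. The median difference was 0.05 log2, beside -0.03 over all genes tested, of which 43.1% were higher. The plot of differences by gene shows the 9 intervals.

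**Figure D1:**
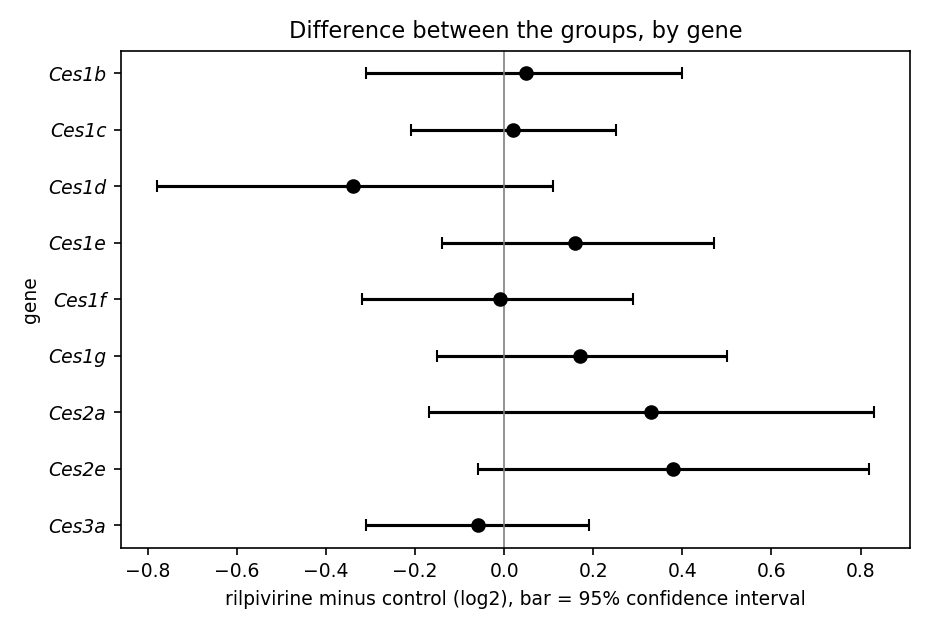
The horizontal axis is the log2 difference, rilpivirine minus control (n = 4 each), with the 95% confidence interval of limma's fit, for each of 9 carboxylesterases on the vertical axis. All 9 intervals include 0, from the narrow interval of Ces1c (-0.21 to 0.25) to the wide interval of Ces2a (-0.17 to 0.83).

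Among the Ces1 genes, Ces1c encodes the carboxylesterase that mouse liver secretes into plasma, where it cleaves ester drugs. Ces1c measured 12.11, 12.03, 12.11 and 12.14 log2 in rilpivirine replicates 1 to 4 and 12.03, 11.98, 12.12 and 12.18 in control replicates 1 to 4. The groups overlapped throughout, and no rilpivirine sample lay outside the control range. The difference was 0.02 log2 (95% confidence interval -0.21 to 0.25; limma adjusted p = 0.979), so the interval runs from 0.865-fold to 1.19-fold. Its spread around the group means, 0.07 log2, was among the smallest of the genes tested: 1.31% of them had a smaller spread. Ces1c lay close to the upper end of the array's values, which albumin reached at 13.37 log2, and whether its signal was compressed there was not tested.

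Ces1b is the neighbour of Ces1c in the cluster, and the RefSeq promoter table holds 2 start sites for it. These sequences (RefSeq, GRCm38.p6, minus strand) show that likeness to Ces1c depends on the start taken: the 150 bases before the inner start of Ces1b (chr8:93079941-93080090), which lie partly within the gene, before its outer start (chr8:93080018-93080167), before the start of Ces1c (chr8:93131284-93131433) and, for comparison, of Ces1g (chr8:93337210-93337359). Capitals mark a CCAAT box on the opposite strand, absent before the outer start of Ces1b. The capitals nearest the end of the Ces1g stretch mark TTTATA, the opposite-strand reading of the other motif found there.
Ces1b inner start: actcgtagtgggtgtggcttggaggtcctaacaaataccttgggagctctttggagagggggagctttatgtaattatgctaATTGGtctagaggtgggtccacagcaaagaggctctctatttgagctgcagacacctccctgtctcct
Ces1b outer start: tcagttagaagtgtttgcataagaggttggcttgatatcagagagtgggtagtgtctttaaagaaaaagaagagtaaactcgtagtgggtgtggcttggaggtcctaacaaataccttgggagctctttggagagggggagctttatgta
Ces1c: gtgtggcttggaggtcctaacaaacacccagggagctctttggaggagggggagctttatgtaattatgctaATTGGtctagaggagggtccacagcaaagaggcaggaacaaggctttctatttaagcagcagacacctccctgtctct
Ces1g: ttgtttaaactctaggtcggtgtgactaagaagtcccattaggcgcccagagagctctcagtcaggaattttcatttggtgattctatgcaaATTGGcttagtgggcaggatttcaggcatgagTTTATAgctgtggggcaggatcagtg
Over the 250 bases before the start, Ces1c was 76.2% identical to Ces1b in a global alignment with the inner start and 43.1% with the outer start. Ces1b and Ces1g were 53.7% identical with the inner and 47.5% with the outer start. Pairs across the Ces1 and Ces2 genes were 43.0% to 50.4% identical, and pairs within Ces1 such as Ces1b (inner start) with Ces1e (47.9%), Ces1e with Ces1g (46.9%) and Ces1c with Ces1e (44.4%) fell in that range.

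Ces1b measured 6.97, 6.29, 6.85 and 6.74 log2 with rilpivirine and 6.73, 6.41, 6.78 and 6.74 in controls. The lowest sample of each group was its replicate 2, and the rilpivirine samples lay on both sides of the controls. The difference was 0.05 ± 0.16 log2 (SE, n = 4 each; limma adjusted p = 0.966), with a sign that changed when rilpivirine replicate 1, rilpivirine replicate 3 or control replicate 2 was left out.

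Ces1d, also called triacylglycerol hydrolase, releases fatty acids from stored triglyceride for VLDL assembly. It had the largest difference on the lower side. Ces1d measured 8.44, 7.49, 8.08 and 8.31 log2 with rilpivirine and 8.64, 8.16, 8.53 and 8.33 in controls. Rilpivirine replicate 2 was the lowest of the 8 by far, replicate 3 lay just under the lowest control, and replicates 1 and 4 lay within the control range. The group means were 8.08 ± 0.42 and 8.42 ± 0.21 log2 (SD, n = 4 each), a difference of -0.34 (95% confidence interval -0.78 to 0.11; limma adjusted p = 0.890). Small nucleolar RNA was highest in that same replicate 2. With that replicate left out the Ces1d difference was -0.14, and it was -0.15 in a fit that held the level of these RNAs constant. Their levels around the mean of the arrays were 0.257, 0.488, 0.023 and -0.203 log2 in rilpivirine replicates 1 to 4. In control replicates 1 to 4 they were -0.605, 0.271, -0.041 and -0.189. The covariate was thus not balanced between the groups, and the part of these RNAs in the Ces1d value was not tested.

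Ces1f, the other triacylglycerol hydrolase of the cluster (TGH-2), measured 9.57, 9.28, 9.56 and 9.79 log2 with rilpivirine and 9.48, 9.42, 9.77 and 9.58 in controls. The groups overlapped almost fully. The difference was -0.01 ± 0.14 log2 (SE, n = 4 each; limma adjusted p = 0.991), and its sign changed in 5 alternatives, among them a further quantile normalization and rilpivirine replicate 2 left out. Ces1d minus Ces1f shifted by -0.32 ± 0.17 log2 (SE) between the groups, with an exact permutation p of 0.114 (n = 4 each), so the 2 hydrolases were not shown to differ.

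Ces1g, once named Es-x, limits the fat that hepatocytes make and export. It measured 10.17, 9.56, 9.62 and 9.86 log2 with rilpivirine and 9.71, 9.48, 9.72 and 9.60 in controls. Replicates 1 and 4 of the rilpivirine group lay above every control, while replicates 2 and 3 lay among them. The difference was 0.17 (95% confidence interval -0.15 to 0.50; limma adjusted p = 0.898), and 0.05 without rilpivirine replicate 1.

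Ces1e encodes egasyn, which holds beta-glucuronidase in the endoplasmic reticulum. It measured 8.65, 8.02, 8.22 and 8.17 log2 with rilpivirine and 8.10, 8.09, 8.15 and 8.07 in controls. The controls kept within a narrow band, rilpivirine replicates 1, 3 and 4 lay above it, and replicate 2 lay below it. The group SDs were 0.27 and 0.03 log2, and the difference was 0.16 ± 0.14 (SE; limma adjusted p = 0.898). Without rilpivirine replicate 1 it was 0.04, and without replicate 2 it was 0.25.

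The Ces2 genes had the largest differences on the higher side. Their sequences before the start are shown for both members with a value: the 150 bases before Ces2a (chr8:104733853-104734002) and Ces2e (chr8:104926110-104926259), plus strand, GRCm38.p6. Both had higher means with rilpivirine, as had 6 of the 9 members in all, and a link to the sequences was not tested. Capitals mark the CCAAT box of Ces2a; the Ces2e stretch holds no match to the motifs searched.
Ces2a: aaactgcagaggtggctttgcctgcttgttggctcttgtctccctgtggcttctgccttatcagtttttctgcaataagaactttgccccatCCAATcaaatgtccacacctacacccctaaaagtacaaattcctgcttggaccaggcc
Ces2e: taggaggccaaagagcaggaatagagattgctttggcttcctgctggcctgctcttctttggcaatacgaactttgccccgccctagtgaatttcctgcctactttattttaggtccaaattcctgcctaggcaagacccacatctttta
Over 250 bases these windows were 53.2% identical, and Ces2a and Ces2c 64.6%.

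Ces2a is a mouse counterpart of human CES2, an esterase of liver and gut that cleaves drugs with a small acyl group. Ces2a measured 9.44, 8.65, 8.29 and 8.51 log2 with rilpivirine and 8.07, 8.44, 8.63 and 8.43 in controls. Rilpivirine replicate 1 stood highest and control replicate 1 lowest, and the other 6 samples lay between them without separation by group. The means were 8.72 ± 0.50 and 8.39 ± 0.23 log2 (SD, n = 4 each), a 1.26-fold ratio with a 95% confidence interval of 0.887 to 1.78 (limma adjusted p = 0.890). Without rilpivirine replicate 1 the difference went from 0.33 to 0.09 log2, and without rilpivirine replicates 1 and 2 together to 0.01, and a fit with small nucleolar RNA as covariate gave 0.17.

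Ces2e, another CES2 counterpart, had the smallest unadjusted p of the family (0.085 in limma). It measured 8.86, 8.29, 7.99 and 8.96 log2 with rilpivirine and 8.06, 8.26, 8.15 and 8.12 in controls. Replicates 1 and 4 stood well above every control and replicate 2 just above, whereas replicate 3 was the lowest of all 8 samples. The ratio was 1.30-fold with a 95% confidence interval of 0.958 to 1.76 (limma adjusted p = 0.890). The difference was 0.38 log2, 0.56 without rilpivirine replicate 3 and 0.23 without rilpivirine replicate 4. Replicate 3 was the only rilpivirine sample not above every control, so leaving it out sets the groups apart by construction. Rilpivirine replicate 4 had the highest list mean of the adipocyte markers, 0.85 log2 above the mean of the 8 arrays, though not each marker was highest there. The list's values are given below, and their part in the Ces2e value was not tested.

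Ces3a, a carboxylesterase of the endoplasmic reticulum, measured 11.01, 10.98, 11.06 and 10.87 log2 with rilpivirine and 10.86, 11.04, 11.04 and 11.21 in controls. All 4 rilpivirine samples lay within the control range. The difference was -0.06 (95% confidence interval -0.31 to 0.19; limma adjusted p = 0.943), from -0.12 without control replicate 1 to -0.00045 without control replicate 4. The spread around the group means was 0.12 log2, and 10.3% of the genes tested had a smaller spread. The plot of values in each array shows Ces1c and Ces3a as the narrow members and Ces1d, Ces2a and Ces2e as the wide ones.

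**Figure D2:**
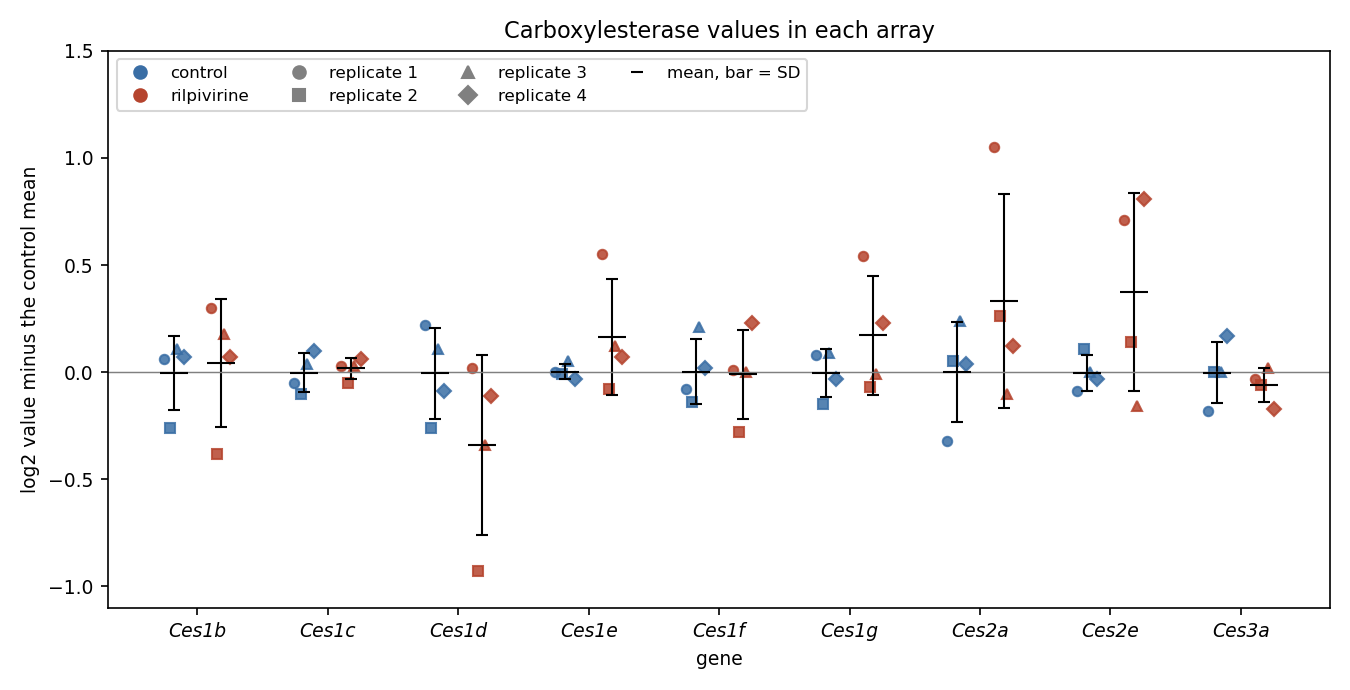
The vertical axis is the log2 value minus the control mean for 9 carboxylesterases on the horizontal axis, with a marker for each array (control and rilpivirine, n = 4 each) and the mean with an SD bar. In 7 of the 9 genes the rilpivirine samples had the larger SD, and the extreme points are Ces2a in rilpivirine replicate 1 (9.44 log2) and Ces1d in rilpivirine replicate 2 (7.49 log2).

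The deviations by array show which samples set these values. Rilpivirine replicate 1 was at or above the 8-array mean in all 9 genes, with a median deviation of 0.28 log2, and was the highest array for 4 of them: Ces1b, Ces1e, Ces1g and Ces2a. Rilpivirine replicate 2 was below the mean in 8 of 9, with a median of -0.15, and was the lowest array for Ces1b, Ces1d, Ces1e and Ces1f. The other arrays had medians of -0.11 to 0.05. The samples at the top and the bottom of the family thus carried the same label. Their small nucleolar RNA levels were above the mean by 0.257 and 0.488 log2, as was that of control replicate 2 by 0.271, while control replicate 1 was at -0.605; their part in this spread was not tested.

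**Figure D3:**
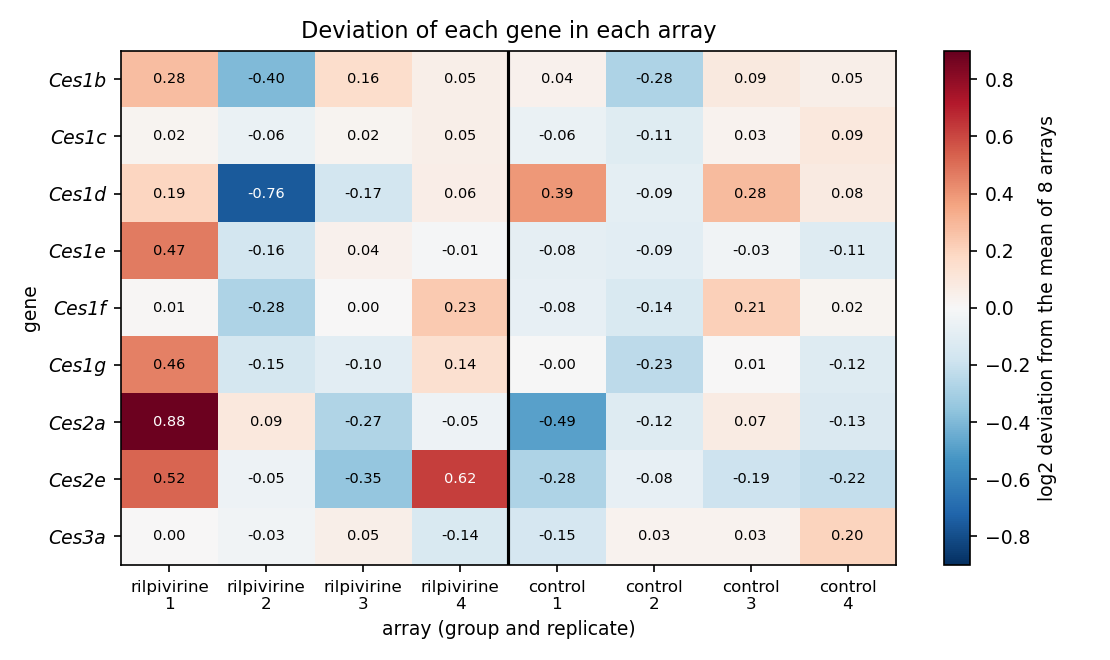
Colour and printed value give the log2 deviation of 9 carboxylesterases (vertical axis) from the mean of 8 arrays, in each array (horizontal axis), with the rilpivirine arrays left of the line. Rilpivirine replicate 1 is at or above 0 throughout, up to 0.88 for Ces2a, and rilpivirine replicate 2 is mostly blue, down to -0.76 for Ces1d.

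Members were then compared with each other, through the per-array log2 ratio of a pair, in which a shift common to an array cancels. Only differences of a ratio between arrays are read, since levels of different probe sets are not comparable. Of 36 pairs, 0 passed an adjusted p of 0.05 over the 36 (smallest 0.494), in a two-sided exact permutation test over the 8 samples. The smallest p that 70 regroupings allow is 0.0286, so a pair could pass only if most of the 36 reached it. It was reached by 2 pairs: Ces1d with Ces1g, and Ces1d with Ces1b. In these 2 of 36 pairs the groups did not overlap. Both share Ces1d, so they are not independent, and the share over pairs of other genes was not worked out.

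Ces1d minus Ces1g was -1.72, -2.07, -1.54 and -1.55 log2 with rilpivirine and -1.07, -1.32, -1.19 and -1.27 in controls. All 4 rilpivirine samples lay below all 4 controls. The difference of the differences was -0.51 ± 0.14 log2 (SE), so the ratio of Ces1d to Ces1g was 1.42-fold higher in controls (exact permutation p = 0.0286, adjusted p = 0.494). With a further quantile normalization it was -0.50, and with samples left out it ran from -0.57 to -0.33. The last was without rilpivirine replicates 1 and 2 together (exact permutation p = 0.0667, the smallest that the arrays left allow). The pair was singled out after its values were seen, and both genes act on hepatocyte triglyceride.

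Ces1b minus Ces1d was -1.47, -1.20, -1.22 and -1.57 log2 with rilpivirine and -1.91, -1.75, -1.75 and -1.59 in controls. The groups lay apart by a narrow margin, with rilpivirine replicate 4 next to control replicate 4. The difference of the differences was 0.38 ± 0.11 log2 (SE; exact permutation p = 0.0286, adjusted p = 0.494), and with a further quantile normalization the groups overlapped (p = 0.0571 in the exact permutation test). The pairs of Ces1d with Ces1e and with Ces2e followed, both with an exact permutation p of 0.0571.

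**Figure D4:**
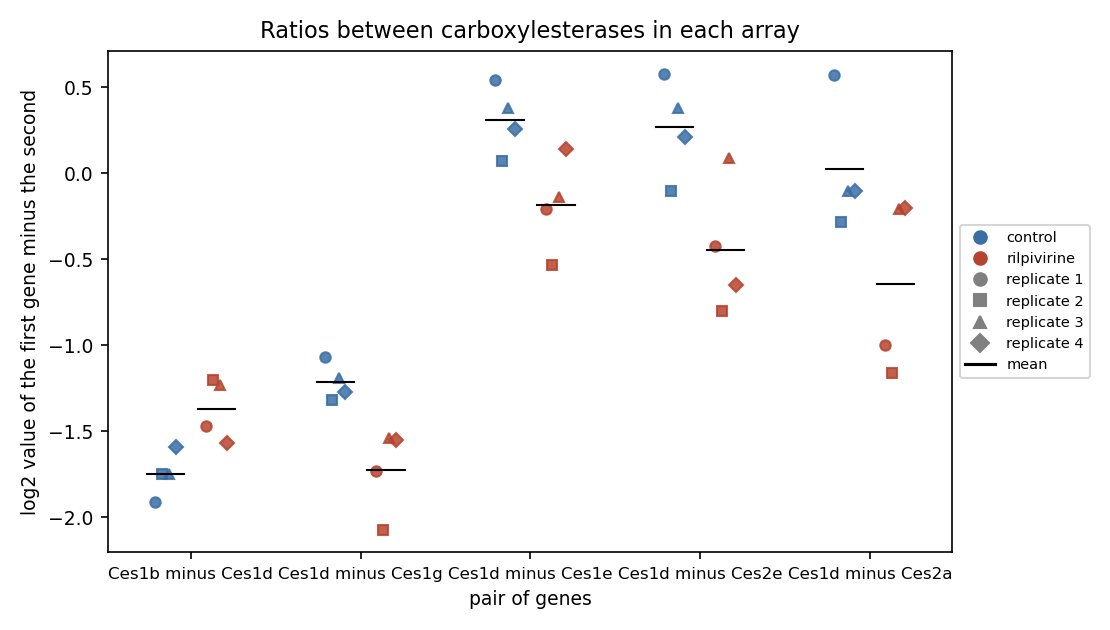
The vertical axis is the log2 value of the first gene minus that of the second in each array, for the 5 pairs with the smallest p on the horizontal axis, with lines at the group means (n = 4 each). Rilpivirine lies apart from control in the pairs of Ces1d with Ces1b (-1.57 to -1.20 against -1.91 to -1.59) and with Ces1g (-2.07 to -1.54 against -1.32 to -1.07), and overlaps it in the other 3 pairs.

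Around their group means most pairs of members varied in the same direction, but the pairs share genes and other gene pairs were not compared. Of 36 pairs, 32 had a positive and 4 a negative Pearson correlation over the 8 arrays, with a median of 0.44, but 0 passed an adjusted p of 0.05 over the 36 (smallest 0.438, exact permutation within groups, 576 arrangements). Ces1d and Ces1g had r = 0.84 (exact permutation p = 0.0382, adjusted p = 0.438) and Spearman's rho = 0.83 (exact permutation p = 0.0295, adjusted p = 0.416). Without rilpivirine replicate 2 and control replicate 2, the samples farthest from the median of Ces1d, r was 0.82. Ces1b and Ces1d had r = 0.89 (exact permutation p = 0.0278, adjusted p = 0.438) and rho = 0.60 (exact permutation p = 0.236, adjusted p = 0.598), and r was 0.36 without the same 2 samples, so this relation rests on them. Ces1c and Ces1f had r = 0.72 (exact permutation p = 0.0451, adjusted p = 0.438) and rho = 0.76 (exact permutation p = 0.0347, adjusted p = 0.416), and r was 0.95 without control replicates 2 and 4.

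The genes most like Ces2e over the 8 arrays, after group means were taken out, were Ctsd (r = 0.992), Prss8 (0.986), Myadm (0.983), Pxdc1 (0.980) and Aqp8 (0.979). Aqp8, a water channel, had a log2 difference of 0.75 ± 0.34 (SE; limma adjusted p = 0.890), in the direction of Ces2e, while Ctsd, the lysosomal protease cathepsin D, had one of -0.10 ± 0.14. The genes most like Ces1c, the probe set with the highest mean, were Fbxo28 (r = 0.984), 4930449E01Rik (0.964), Mgmt (0.957), Gng5 (0.955) and Olfr71 (0.953). They were picked as the highest of 16626 correlations over 8 arrays and are given without a test.

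The letters of known binding motifs were searched on both strands of the 250 bases before the start, in the 7 members that the RefSeq table holds (Ces1b, Ces1c, Ces1e, Ces1g, Ces2a, Ces2c and Ces2e). AGGTCA, the core bound by nuclear receptors such as PXR, CAR and PPAR alpha, was present in 1 member, Ces2a, and in 14.0% of all 32851 windows. CCAAT was present in 5 of 7 (Ces1b before its inner start, Ces1c, Ces1g, Ces2a and Ces2c) and in 33.8% of all windows. Members are counted by gene and the background by window, and the window before the outer start of Ces1b held no match. The windows of Ces1c and of the inner start of Ces1b were 76.2% identical, so their matches are not independent. TATAAA was present in 1 (Ces1g) and in 12.4% of all windows. TGACNNNGC, the core of the antioxidant response element, and GTTAAT, from the HNF1 site, were present in 0 of 7, against 10.2% and 6.43% of all windows. No match in these members overlapped a match of another motif, and a match describes the letters only.

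Of 18 tested regulators known to act on carboxylesterase genes, 5 had a higher and 13 a lower mean in the treated group. Their median difference was -0.10 log2, beside -0.03 over all genes, and 0 passed the adjusted threshold. All 18 also passed a filter at the 50th percentile, above which the median of all genes was -0.06. After a further quantile normalization 8 were higher and 10 lower, and the median was -0.04. At an unadjusted p under 0.05 there were 3 lower and 0 higher, beside 534 lower and 333 higher of the 16635 genes (5.21% together): Ppara, the fatty acid sensor of hepatocytes, Foxo1, a factor restrained by insulin, and Nr1i2, which encodes the drug sensor PXR. Ppara measured 7.61 to 8.24 log2 with rilpivirine and 8.14 to 8.56 in controls, a difference of -0.41 ± 0.15 (SE; limma adjusted p = 0.890). Foxo1 and Nr1i2 had differences of -0.51 ± 0.21 and -0.43 ± 0.19 (SE; limma adjusted p = 0.890 for both). Foxo1 was at -0.26 with the mean of its probe sets, and Nr1i2 at -0.27 with the small nucleolar RNA covariate. In all 3 the groups overlapped.

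Among other family genes outside the 10, 7 passed the filter, 5 with a higher and 2 with a lower mean, with a median difference of 0.07; 0 passed the adjusted threshold or an unadjusted p under 0.05. Ces2f had a difference of 0.33 ± 0.22 log2 (SE; 0.07 to 0.50 over the alternatives) at a dim 2.94 log2 in controls, Ces2g one of 0.11 ± 0.17, and the pseudogene Ces2d-ps one of 0.13 ± 0.24. Without rilpivirine replicates 1 and 2 together, 2 of the 7 were higher and 5 lower, and the sign of Ces2g turned; that of Ces2d-ps turned with rilpivirine replicate 1 left out. The genes Ces1a, Ces1h and Ces2b were below the filter, at 2.03 to 2.61 log2 in group means.

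Of 28 other esterases and lipases tested, 5 had a higher and 23 a lower mean (median -0.11 log2), where 43.1% of all genes were higher, and 0 passed the adjusted threshold. With a filter at the 50th percentile 27 were left, with a median of -0.12 beside -0.06 over all genes. At an unadjusted p under 0.05 there was 1 lower and 0 higher. It was Pnpla2, adipose triglyceride lipase, at 6.95 to 7.51 log2 with rilpivirine and 7.50 to 7.83 in controls (difference -0.45 ± 0.14, SE; limma adjusted p = 0.813). Without rilpivirine replicates 1 and 2 together, 16 of the 28 were higher and 12 lower (median 0.05 log2). The split was 13 and 15 (median -0.01) with the small nucleolar RNA covariate, 9 and 19 (-0.04) after a further quantile normalization, and 11 and 17 (-0.05) without rilpivirine replicate 2. Aadac, an esterase of the endoplasmic reticulum that also cleaves drugs, had a difference of -0.19 ± 0.18 (SE).

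Of 16 genes of VLDL assembly and triglyceride packaging, which receives the fatty acids that Ces1d releases, 8 had higher and 8 lower means, with a median of -0.02, and 0 passed the adjusted threshold. Agpat2, an acyltransferase of triglyceride synthesis, was the 1 gene at an unadjusted p under 0.05, at 8.96 to 9.50 log2 with rilpivirine and 8.80 to 9.04 in controls (difference 0.35 ± 0.14, SE; limma adjusted p = 0.890), and 0.20 without rilpivirine replicates 1 and 2 together. Apob, the protein scaffold of VLDL, and Mttp, which loads it with lipid, had differences of 0.01 (95% confidence interval -0.24 to 0.26) and 0.02 (-0.23 to 0.26).

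Markers of cell types that also express carboxylesterases were read in the same arrays. In bulk liver, fewer cells of a type and less RNA per cell cannot be told apart. Of 15 hepatocyte markers 4 had higher and 11 lower means (median -0.09), and the list mean per array, around the mean of the 8 arrays, lay between -0.20 and 0.05 log2 with rilpivirine and between 0.00 and 0.17 in controls. Pck1, the gluconeogenic enzyme PEPCK, was the hepatocyte marker with an unadjusted p under 0.05, with a difference of -0.62 ± 0.24 (SE; limma adjusted p = 0.890).

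Of 7 tested adipocyte markers 3 had higher and 4 lower means (median -0.08), and the list mean lay between -0.35 and 0.85 log2 with rilpivirine and between -0.13 and 0.18 in controls. The value of 0.85 belonged to rilpivirine replicate 4, where Retn, the adipocyte hormone resistin, reached 5.38 log2 against 2.96 to 3.30 in controls, and the lipid droplet gene Cidec 7.85 against 5.54 to 6.49. The adipocyte hormones Adipoq and Lep stayed dim in every array, at 2.34 to 2.85 and 2.60 to 3.12 log2. The median was 0.10 without rilpivirine replicate 1, 0.05 without replicate 2, -0.23 (1 higher and 6 lower) without replicate 4, 0.01 without control replicate 1, and 0.18 with the small nucleolar RNA covariate. Pnpla2, which is in this list too, was its 1 member at an unadjusted p under 0.05. Ces1d and Ces1f, which fat also expresses, were at 8.31 and 9.79 log2 in that array, within the control range and just above it.

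Of 10 tested enterocyte markers, of the gut cells that share the Ces2 genes, 4 had higher and 6 lower means (median -0.07), and Cdx2, Lgals4 and Slc5a1 had differences of 0.31 ± 0.15, -0.18 ± 0.16 and -0.20 ± 0.21 (SE). The list mean lay between -0.17 and 0.09 log2 in treated samples and between -0.07 and 0.08 in controls. Only 2 of the enterocyte markers passed a filter at the 50th percentile, so the list mean rests mostly on dim genes. Its relation to the Ces2 values was not tested. Over the alternatives the differences of Cdx2, Lgals4 and Slc5a1 ran from 0.16 to 0.38, from -0.26 to -0.04 and from -0.41 to -0.04. The brush border genes Sis and Vil1 were at 2.35 to 3.32 log2 in group means, while Fabp2 was at 8.16 and 8.50 and Apoa4, which liver also makes, at 12.07 and 12.16. With the small nucleolar RNA covariate 6 of the 10 were higher and 4 lower (median 0.05). Of 6 tested kidney tubule markers 3 were higher and 3 lower (list mean -0.05 to 0.10 with rilpivirine and -0.11 to 0.08 in controls), with Slc5a2 at a difference of 0.31 ± 0.12. Of 5 tested pancreatic acinar markers 2 were higher and 3 lower (list mean -0.11 to 0.11 and -0.11 to 0.16), with Cel, Clps and Ctrb1 at -0.30, 0.27 and 0.17. Of 11 macrophage markers 1 was higher and 10 lower (median -0.14; list mean -0.29 to 0.11 and -0.08 to 0.25), but 5 were higher and 6 lower (median -0.01) without rilpivirine replicate 4. C1qb and C1qa had differences of -0.50 ± 0.14 and -0.33 ± 0.11 (SE). In each of these lists 0 members passed the adjusted threshold in limma.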

How the data were processed

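Total RNA of snap-frozen liver, 300 ng per sample, was measured on 8 single-colour whole-transcript arrays, 4 per group, per the labels' protocols. The authors deposited log2 values of 41345 probe sets; RMA and limma are named in the submitters' processing notes, and the sources used here give no version, build or filter for them. RMA equalises total signal across arrays, so a change in total mRNA would not show. No pair of arrays was identical.

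Probe sets with a single symbol (23521) were kept, the brightest per gene (22180 genes), and genes under the 25th percentile were dropped (16635 tested). Group differences came from limma 3.58.1 under R 4.3.3 (lmFit, then eBayes), as two-sided tests with Benjamini-Hochberg adjustment over all genes. Pairs of members and correlations used exact permutation tests in Python 3.11.15. The fit was tested on simulated data with known changes. eBayes borrows spread across genes, which widens intervals of steady genes such as Ces1c.

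The members, gene lists, tests and alternatives were chosen with earlier results of these data known. The named genes were all members, the genes of each list at an unadjusted p under 0.05 (otherwise the 3 with the smallest p), and the 5 genes most like the member with the smallest p and the member with the highest mean. Outside that rule, after their values were seen, came the motifs, the pairs described singly, and the genes Alb, Ttr, Ass1, Apob, Mttp, Aadac, Retn, Cidec, Adipoq, Lep, Sis, Vil1, Fabp2, Apoa4, Ces1a, Ces1h and Ces2b. Upstream sequences came from RefSeq (GRCm38.p6). Alternatives were other moderation, weights, scaling, filters and probe set rules, a small nucleolar RNA covariate, the replicate block, and samples left out. Figures were drawn with matplotlib 3.10.9.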

Additional observations from a re-analysis of the deposited data

Results flagged for a closer look

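Among 18 groups of 4 values (9 carboxylesterases in each group), 1 held a sample far from the others: Ces1b in control replicate 2, at 6.41 log2, with the other controls at 6.73, 6.78 and 6.74. Chance marks about 1 in 20 such groups. Without control replicate 2 the Ces1b difference was -0.04 log2 in place of 0.05.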

How the results depend on the processing

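In every alternative run, limma called 0 of the 9 carboxylesterases and 0 genes in all after adjustment. An exact permutation test per gene gave the same, and 0 of 36 pairs passed where pairs were refitted. With so few arrays, those permutation tests could pass only if most genes or pairs reached the smallest p, and in some settings not at all. Their counts of 0 therefore add no support. The median difference of the members, 0.05 log2 over all arrays, ran from -0.01 to 0.19 when each sample was left out, highest without rilpivirine replicate 2. The groups did not overlap in 1 member (in place of 0) after a further quantile normalization (Ces1g). The same held without rilpivirine replicate 2 or without rilpivirine replicates 1 and 2 together (Ces1e), and without rilpivirine replicate 3 (Ces2e). In Ces1e and Ces2e the only rilpivirine sample not above every control had been left out, so the gap follows from that. Leaving out single samples gave 0 to 1. An unadjusted p under 0.05 appeared for Ces2e in 3 alternatives (a further quantile normalization, array weights, and rilpivirine replicate 3 left out), and for Ces1d with the replicate block. Over all arrays the shares of all genes were 3.04% and 5.21%. They were not counted in these settings, and fewer arrays make separation by chance more frequent.

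Signs changed near zero. Ces1f differed by 0.04 after a further quantile normalization, 0.11 without rilpivirine replicates 1 and 2 together, 0.06 with the small nucleolar RNA covariate, 0.08 without rilpivirine replicate 2 and 0.06 without control replicate 3. Ces1b differed by -0.04 without rilpivirine replicate 1, -0.002 without rilpivirine replicate 3 and -0.04 without control replicate 2, where Ces1c differed by -0.01. Ces2g differed by -0.08 without rilpivirine replicates 1 and 2 together, and by -0.02 to 0.27 when each sample was left out, lowest without rilpivirine replicate 1. Ces2d-ps differed by -0.10 with the covariate, by -0.0041 without rilpivirine replicate 1, and by -0.10 (without control replicate 1) to 0.32 when each sample was left out. The cause of these changes was not tested. Ces1d, Ces1e, Ces1g, Ces2a, Ces2e and Ces3a kept their sign where weights, scaling, the covariate or the samples changed, though Ces3a came to -0.00045 without control replicate 4 and Ces2a to 0.01 without rilpivirine replicates 1 and 2 together; the other settings cannot move a member's difference.

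The same replicate numbers correlated at -0.25, 0.46, -0.09 and 0.07 in their deviations from the group means. The value of 0.46, of the replicates numbered 2, was the highest of all combinations of a rilpivirine and a control replicate. The labels do not say whether equal numbers pair the samples, and these values do not settle it. The replicate block cannot move a difference in this balanced design, only its error. With it 0 members were called. Both pairs singled out had an exact permutation p of 0.125, the smallest that this paired test allows.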
